A study of Mus musculus with 4 samples.

Results

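This account covers 10 mouse genes of the immunoglobulin superfamily that code for neural adhesion proteins: Chl1, L1cam, Nrcam and Nfasc of the L1 family, Ncam1 and Ncam2, and the contactin genes Cntn1, Cntn2, Cntn4 and Cntn6. Their members were taken by name, as all 18 array probes annotated to these 10 genes among 39429 probes, and each probe was read separately. The genes were selected on the mutant over control log2 ratios of these same arrays, so those ratios, and the calls made from them, are given as a description. Gene expression was measured in otocysts, the epithelial vesicles that form the inner ear and the neurons of its ganglion, dissected at E10.5 from NMRI mouse embryos. The mutant RNAs (Tbx2/3cDKO) came from embryos that carried Pax2-cre and were fl/fl for Tbx2 and fl/fl for Tbx3, genes of T-box transcription factors. The Pax2-driven cre is active in the otic region and recombines the floxed copies there. The control RNAs came from Tbx2(fl/?);Tbx3(fl/?) embryos with no cre in the label, so at least 1 floxed copy of each gene was shared by mutants and controls and the other copy is not stated.

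On each of 4 Agilent arrays a mutant RNA was set against a control RNA in another dye, with the dyes swapped between the arrays of a sex. Arrays 1 and 2 carried female RNAs and arrays 3 and 4 male RNAs. No label says whether an RNA came from 1 embryo or a pool, so p-values reflect the spread among these RNAs alone, which may be technical. The share of spots well above background ranged over channels up to 63.2% and down to 58.4%, and with 4 arrays precision is limited. Tbx3 had log2 ratios of mutant over control from -3.61 to -3.25 on the 4 arrays, while the Tbx2 probe ranged from -0.27 to 0.23 and the sources used here do not say whether it lies in the deleted part.

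Proteins of these families sit on the cell surface and carry immunoglobulin and fibronectin type III domains outside the cell. L1 family proteins cross the membrane, bind L1 proteins, contactins or integrins on their own or neighbouring cells, and are tied through their tails to ankyrin and the spectrin cytoskeleton. Ncam proteins bind one another and can carry polysialic acid, a long sugar chain that weakens adhesion, whereas contactins are held by a lipid anchor and signal through partners such as the Caspr proteins. Neurons use these proteins for axon growth and bundling and for contact with glia, and Ncam1 is also made by several embryonic epithelia.

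Probe sequences are shown for the 3 genes that were called between the genotypes, because a ratio on this array belongs to the stretch of transcript that its probe reads. The Chl1 probes lie on chromosome 6 of mm9, plus strand, the brighter one at 103682933 to 103682992 and the dimmer one at 103667565 to 103667624. The brighter Ncam1 probe lies on chromosome 9, minus strand, at 49310320 to 49310379, and the dimmer one at 49351182 to 49351241. The Cntn1 probe lies on chromosome 15, plus strand, at 92170470 to 92170529. Each probe has 60 bases. All are printed 5′ to 3′ as in the files, in lower case throughout, 2 of them whole and 3 by their first 30 bases. Which exon or UTR holds each position is not stated in the sources used.
Chl1, dimmer probe, whole: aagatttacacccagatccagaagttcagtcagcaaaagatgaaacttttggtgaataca
Chl1, brighter probe, first 30 bases: ggtgtttgtattgtgcttatggctatgtat
Ncam1, dimmer probe, whole: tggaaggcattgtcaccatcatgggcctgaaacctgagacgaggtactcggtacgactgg
Ncam1, brighter probe, first 30 bases: actttttactgagtgaaacatcaacaccac
Cntn1, only probe, first 30 bases: gggttcctgcctatttttgaaagaccctca
The longest run of bases shared by any 2 of the 18 probes was 10, and 0 other probes on the array had the same sequence as one of them.

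Of the 18 probes, 7 were tested because, in 1 genotype or the other, 3 or more of the 4 arrays showed them well above background, and 11 were not. The 7 belonged to 5 genes: Chl1 and Ncam1 with 2 probes each, and Nrcam, Nfasc and Cntn1 with 1 each. The other 5 genes, L1cam, Ncam2, Cntn2, Cntn4 and Cntn6, had no tested probe. For those genes and the remaining Ncam1 probe, 0 of 88 spots were well above background. Their normalized log2 levels ran from 5.73 to 6.78 in mutant RNAs and from 5.74 to 6.75 in control RNAs. These levels sit at the lower limit of the measurement, where the faintest probe well above background in a mutant channel had a level of 6.44 to 6.87. L1cam, the founding member of the L1 family, had levels of 6.56, 6.57, 6.60 and 6.78 in the mutant RNAs against 6.49, 6.48, 6.56 and 6.55 in the control RNAs, 0 of 8 spots being well above background. No ratio is given for these 11 probes.

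**Figure D1:**
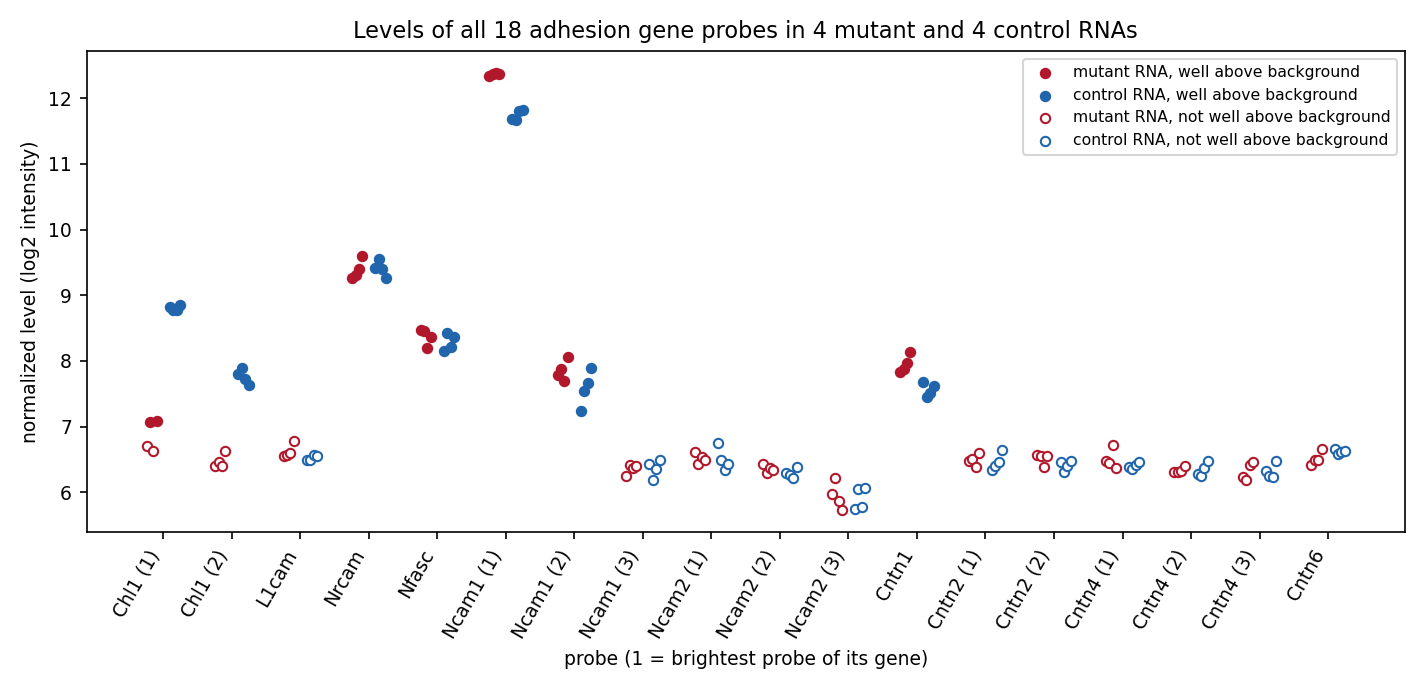
Normalized log2 level (vertical axis) of each of the 18 probes in the 4 mutant (red, left) and 4 control RNAs (blue, right), filled where the spot was well above background. The Chl1 points separate widely with mutants low, the brighter Ncam1 probe and Cntn1 separate with mutants high, and the 11 probes with only open symbols lie between 5.73 and 6.78.

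Among the 7 tested probes, 2 were lower in mutant otocysts, 2 were higher and 3 were not called, with a median log2 ratio of 0.09. The call is a limma adjusted p under 0.05 over all 23175 tested probes, of which 22.1% were called, 12.4% higher and 9.67% lower, with a median log2 ratio of 0.00. Since the genes were chosen with this comparison known, nothing is read from the members' count against that share. In bulk samples, fewer cells of a type and less RNA per cell cannot be told apart. By family, the 4 tested L1 probes held the 2 lower calls and the 2 tested Ncam probes 1 higher call. The only tested probe of a contactin member held the other higher call.

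Chl1, the close homologue of L1 that neurons and Schwann cell precursors use for growth and guidance, was lower in the mutant with each of its 2 probes. The brighter probe had log2 levels of 6.71, 7.07, 6.63 and 7.09 in the mutant RNAs of arrays 1 to 4, against 8.82, 8.78, 8.78 and 8.85 in the control RNAs. The groups did not overlap. The mutant levels followed the dye, at 6.71 and 6.63 where the mutant was red and not well above background, and at 7.07 and 7.09 where it was green, while the control levels varied little. The log2 ratio was -1.93 ± 0.23 (SD, n = 4 arrays), which puts the mutant level 3.82-fold lower (limma SE 0.05). The dimmer probe had log2 levels of 6.41, 6.47, 6.40 and 6.63 in the mutant RNAs, against 7.80, 7.90, 7.73 and 7.63 in the control RNAs. These groups did not overlap either, as was so for 22.5% of all tested probes. Its log2 ratio was -1.29 ± 0.20 (SD, n = 4 arrays), with a limma SE of 0.08.

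The size of the Chl1 difference is limited by how faint the mutant spots were. With the dimmer probe 0 of 4 mutant spots were well above background, so the size of the drop there is uncertain. Mutant levels below the faintest level well above background on their array were raised to it, which gave a mean drop of 2.12-fold. This is not a strict minimum, and on array 4 the log2 ratio itself was -0.995. With the brighter probe 2 of 4 mutant spots were well above background, those of arrays 2 and 4, on which the mutant carried the green dye. Before normalization, the brighter probe's mutant spots exceeded their local background by 41.5, 47.2, 47.4 and 61.5 units, whereas the control spots exceeded theirs by 306, 451, 318 and 441 units. All 4 control spots of each probe were well above background, so both probes came to be tested through the control RNAs alone. The 2 probes lie 3881 bases apart in the transcript, and their drops are not compared, since the dimmer probe's mutant spots were not well above background. With the scanner software's own background subtraction the log2 ratios were -3.40 for the brighter and -3.67 for the dimmer probe, and in the authors' deposited values they were -3.40 and -3.05. The lower level of Chl1 in the mutant was called in all of these, and its size was not settled.

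**Figure D2:**
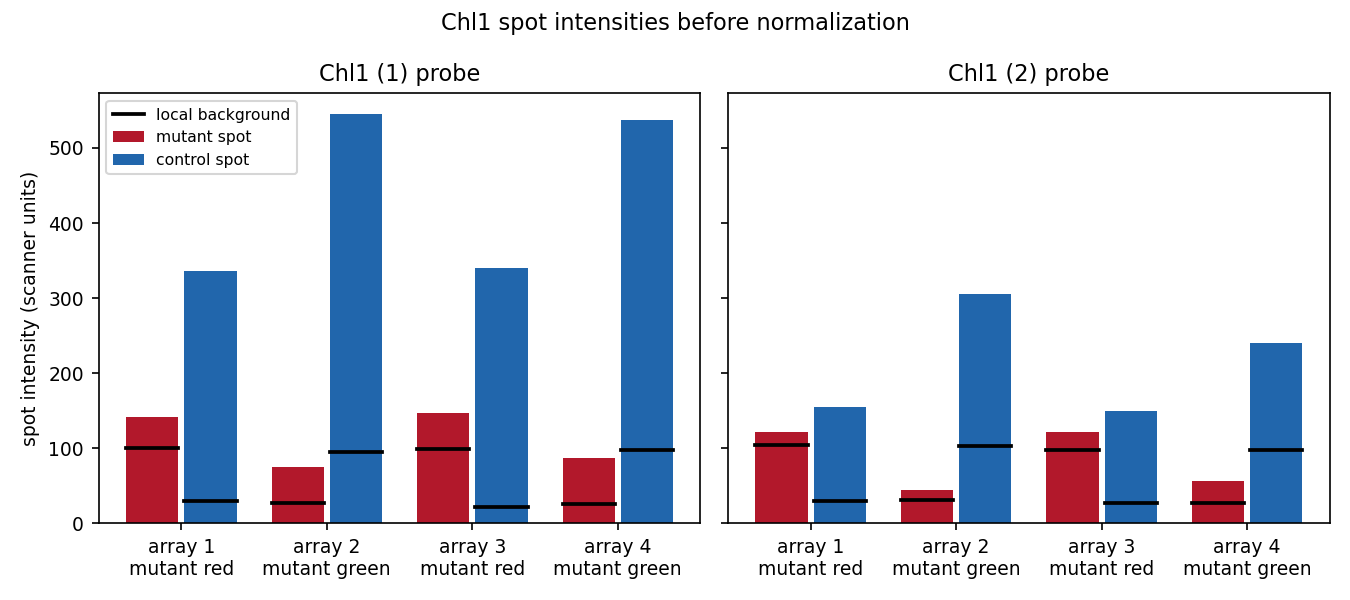
Spot intensity in scanner units before normalization (vertical axis) for the brighter (left) and the dimmer Chl1 probe (right), with mutant spots in red and control spots in blue on each array and the local background as a black line. The mutant bars end near their background lines on all 4 arrays, while the control bars rise well above theirs.

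The other measured L1 genes were not called. Nrcam, which links axons and glia and binds contactins, had log2 levels of 9.26, 9.31, 9.40 and 9.59 in the mutant RNAs, against 9.42, 9.56, 9.41 and 9.26 in the control RNAs. The groups overlapped, and the sign of the ratio differed between arrays, from -0.25 on array 2 to 0.33 on array 4. The mean log2 ratio was -0.02 ± 0.26 (SD, n = 4 arrays), with a 95% interval of -0.25 to 0.20 from limma. Nfasc, whose product lies with sodium channels at the start of axons in mature neurons, had log2 levels of 8.47, 8.46, 8.19 and 8.37 in the mutant RNAs, against 8.16, 8.42, 8.21 and 8.37 in the control RNAs. Its ratio was 0.32 on array 1 and between -0.02 and 0.04 on the other arrays, with a mean of 0.09 ± 0.16 (SD, n = 4 arrays) and a 95% interval of -0.07 to 0.24. These intervals leave room for small differences in either direction.

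Ncam1, whose product joins like cells to one another, was higher in the mutant with the brighter of its probes. That probe had log2 levels of 12.34, 12.36, 12.39 and 12.37 in the mutant RNAs, against 11.69, 11.66, 11.80 and 11.81 in the control RNAs. The groups did not overlap, and all 8 levels were far above background. The log2 ratio was 0.62 ± 0.06 (SD, n = 4 arrays), which puts the mutant level 1.54-fold higher (limma SE 0.05). It was the tightest ratio among the 7 tested probes, at 0.56 to 0.70 over the arrays. The dimmer Ncam1 probe had log2 levels of 7.78, 7.88, 7.70 and 8.05 in the mutant RNAs, against 7.24, 7.54, 7.66 and 7.89 in the control RNAs. Its groups overlapped, and its log2 ratio of 0.27 ± 0.22 (SD, n = 4 arrays; limma SE 0.09) was not called. On the 4 arrays this ratio was positive, at 0.54, 0.34, 0.04 and 0.16.

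The Ncam1 probes are not annotated to the same transcripts. The brighter probe is annotated to 2 RefSeq transcripts of Ncam1, the dimmer one to 3, and the probe that was not above background to 1. In the normalized ratios the brighter probe exceeded the dimmer one on each array, by 0.11 to 0.54 on the log2 scale. With the scanner software's ratios this did not hold on array 1, at 0.69 for the brighter and 0.89 for the dimmer probe. The gap thus depends on the processing, and its cause was not tested. The 2 probes lie 4844 bases apart in the transcript numbering of the files. Ncam2, the relative best known from olfactory axons, had 3 probes, each with 0 of 8 spots well above background.

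Of the 4 contactin members, only Cntn1 had a tested probe. Cntn5, a contactin gene outside the members, had a tested probe with a log2 ratio of -0.08, which was not called. Cntn1, which pairs with Caspr at the junctions between axon and myelin and is made early by neurons, had log2 levels of 7.82, 7.88, 7.96 and 8.14 in the mutant RNAs, against 7.67, 7.45, 7.51 and 7.62 in the control RNAs. The groups did not overlap, though the lowest mutant and the highest control level lay close together. The log2 ratio was 0.39 ± 0.17 (SD, n = 4 arrays), which puts the mutant level 1.31-fold higher (limma SE 0.07). It was 0.15 on array 1 and 0.43 to 0.52 on the other arrays, and with the scanner software's ratios it was 0.63. Cntn2, a marker of early commissural and motor axons, Cntn4 and Cntn6 had 6 probes together and 0 spots well above background. Chl1, Cntn6 and Cntn4 lie in this order on chromosome 6, the Cntn6 probe lying 1115157 bases beyond the brighter Chl1 probe.

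**Figure D3:**
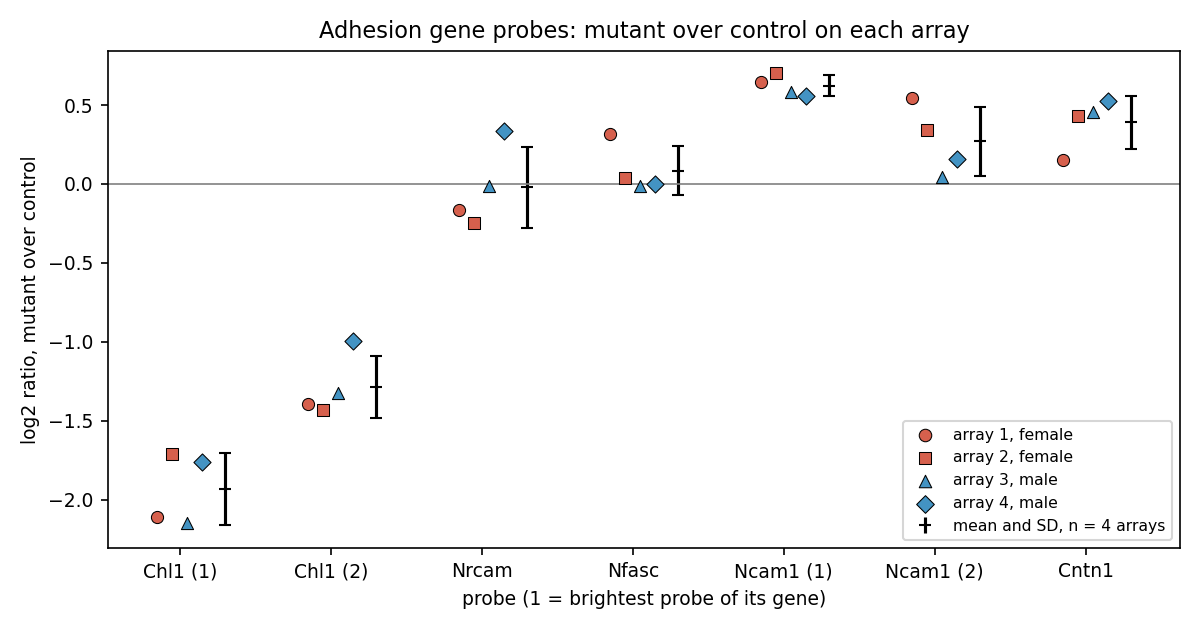
Log2 ratio of mutant over control (vertical axis) on each of the 4 arrays for the 7 tested probes, with female pairs in red and male pairs in blue, and the mean with its SD. The Chl1 points lie far below 0 on every array, down to -2.15, those of the brighter Ncam1 probe between 0.56 and 0.70, and those of Nrcam and Nfasc on either side of 0.

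Sex was not used to choose the genes, and 2 tests were made with it. Each sex had 2 arrays, so the spread rests on few values. In either test, another difference between the female and the male arrays cannot be told from sex. In the first, the mutant over control ratio was compared between male and female pairs by an interaction term in limma. Of the 7 probes, 0 were called, against 0.0173% of all tested probes, and 2 had an unadjusted p under 0.05, as did 16.6% of all tested probes. Nrcam had a mean ratio of 0.16 in male and -0.21 in female pairs, a difference of 0.37 (limma SE 0.12, adjusted p = 0.209). With arrays centred on their median in place of loess, this difference was 0.47 and passed, with a limma adjusted p of 0.0459, the lowest over the alternatives, which reached 0.323. The dimmer Ncam1 probe had ratios of 0.10 in male and 0.44 in female pairs (limma adjusted p = 0.197). The brighter Chl1 probe had -1.95 in male and -1.91 in female pairs (limma adjusted p = 0.838).

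In the second test, levels were compared between male and female RNAs over both genotypes, with limma's separate-channel fit. Again 0 of the 7 probes were called, against 0.0518% of all tested probes, and 0 had an unadjusted p under 0.05, against 12.0% of all tested probes. The differences of male minus female level ran from -0.09 for Nfasc to 0.22 for the dimmer Ncam1 probe, with limma adjusted p-values from 0.504 to 0.984. The brighter Ncam1 probe had mean log2 levels of 12.09 in male and 12.01 in female RNAs.

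Genes that work with these proteins were read from 5 lists. Like the marker lists below, these were chosen with earlier results of these data known, so their counts and p-values are given as a description. Over all 5, 54 of 68 genes had a tested probe, and 25 of their 75 probes were higher and 6 lower in the mutant. Over all tested probes, 12.4% were higher and 9.67% lower, the shares against which this and the following list counts stand. The 23 probes for proteins that bind the inner tails or act downstream of them held 10 higher and 0 lower. Their median log2 ratio was 0.15, against 0.00 over all tested probes. Among the higher ones, Ank1 was well above background on 3 mutant and 0 control arrays, so it was tested through the mutant RNAs alone. Dcx, a microtubule protein of migrating young neurons that binds the neurofascin tail, had a ratio, on the log2 scale, of 0.59 ± 0.28 (limma adjusted p = 0.00151, SD over 4 arrays). Ezr, which ties membrane proteins to actin, had 0.36 ± 0.06 (limma adjusted p = 0.00325). The ankyrin gene Ank2 had 0.35 ± 0.13 (limma adjusted p = 0.00501), and Gap43, a growth cone protein downstream of Ncam, had 0.35 ± 0.08 (limma adjusted p = 0.00372).

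For polysialic acid, 2 of 6 probes were higher and 1 lower. St8sia4 and St8sia2, the enzymes that build this chain on Ncam, had ratios on the log2 scale of 0.62 ± 0.24 and 0.33 ± 0.19 (SD over 4 arrays, limma adjusted p = 0.00127 and 0.0245). Cmas, which activates sialic acid, had -0.22 ± 0.09 (limma adjusted p = 0.0362). Of 7 probes for proteases that shed these proteins from the surface, 1 was higher and 0 lower, a share near the 12.4% of all tested probes. This was Adam10, with 0.57 ± 0.13 (limma adjusted p = 0.00107). Bace1, which cleaves Chl1 in neurons, had 0.01 and was not called; it was named after its value was seen.

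Among 18 probes for outer partners, 5 were higher and 3 lower, with a median of 0.06. Prnp, the prion protein that binds Ncam, had 0.55 ± 0.03 on the log2 scale (SD over 4 arrays, limma adjusted p = 0.000394), and Nrp1, a semaphorin receptor that pairs with L1 proteins, 0.35 ± 0.11 (limma adjusted p = 0.00403). Cntnap2, a Caspr gene, had -0.48 ± 0.17 (limma adjusted p = 0.00164). Gfra1, a receptor of glial cell line-derived neurotrophic factor that can act with Ncam, had -0.36 ± 0.05 (limma adjusted p = 0.0028). In the list of other immunoglobulin adhesion genes, 7 of 21 probes were higher and 2 lower, with a median of 0.14. Dscaml1, among the higher ones, was well above background on 3 mutant and 0 control arrays. Ntm and Sdk1 had 0.55 ± 0.23 and 0.50 ± 0.24 (SD, n = 4 arrays, limma adjusted p = 0.00201 and 0.00261). A dimmer probe of Ntm had 0.49 and was also called, whereas a dimmer probe of Sdk1 had 0.22 and was not. Negr1 and Cadm2 had -0.42 ± 0.14 and -0.36 ± 0.06 (limma adjusted p = 0.00217 and 0.0024). For Cadm2, 2 of 4 mutant spots were well above background.

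Markers of the cells that the dissected tissue could hold moved on the same arrays, and their part in the adhesion gene ratios was not tested. Of 15 otocyst epithelium probes, 10 were lower and 1 higher, with a median log2 ratio of -0.65. Their mean log2 level was 11.82 to 11.90 in mutant RNAs and 12.54 to 12.63 in control RNAs, so the labelled tissue was present in each RNA. Hmx2, Oc90, Dlx5 and Gata3, genes of the otocyst wall, had ratios of -1.94 ± 0.13, -1.83 ± 0.24, -1.19 ± 0.22 and -1.10 ± 0.22 (SD over 4 arrays). Of 15 neuroblast and neuron probes, 12 were higher and 0 lower, with a median of 1.04 and mean levels of 10.06 to 10.24 in mutant RNAs and 9.13 to 9.26 in control RNAs. The dimmer Ina probe, among the higher ones, was well above background on 4 mutant and 2 control arrays. In this list Nefm, a neurofilament gene, had 1.65 ± 0.07 (SD over 4 arrays, limma adjusted p = 1.05e-05), and Pou4f1, a sensory neuron gene, 1.53 ± 0.08. Of 6 neural crest and glial precursor probes, 5 were lower and 1 higher, with a median of -0.43 and mean levels of 10.26 to 10.37 in mutant RNAs and 10.58 to 10.68 in control RNAs. Sox10, a transcription factor of neural crest and glia, had -0.35 ± 0.17 (SD over 4 arrays, limma adjusted p = 0.0105), Ednrb, an endothelin receptor, had -0.67 ± 0.25 (limma adjusted p = 0.00155), and Fabp7 had 0.85 ± 0.20 (limma adjusted p = 0.000177). A dimmer Ednrb probe had -0.33 and was also lower, with 2 of 4 mutant spots well above background.

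The remaining marker lists were mostly higher in the mutant. Erythroid probes were higher in 9 of 9 cases (median 1.13), endothelial in 9 of 10 (median 0.68), mesenchyme in 7 of 9 (median 0.32) and macrophage in 7 of 11 (median 0.31), with 0 lower in these 4 lists. Hindbrain probes gave 2 higher and 1 lower of 5 (median 0.17), and muscle probes 3 higher and 1 lower of 5 (median 0.27). The dimmer Pax3 probe, among the higher hindbrain ones, was well above background on 4 mutant and 0 control arrays. Mean levels of the erythroid list were 13.64 to 13.92 in mutant RNAs and 12.40 to 12.82 in control RNAs. Hbb-bh1, an embryonic globin gene, had a ratio of 1.45 ± 0.25, Sox17 of the endothelial list 0.79 ± 0.07, and Osr1 of the mesenchyme list 1.24 ± 0.17 (SD over 4 arrays). In the muscle list Actc1 and Tnni1, a cardiac actin and a troponin gene, had 1.66 ± 0.11 and -2.08 ± 0.26.

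**Figure D4:**
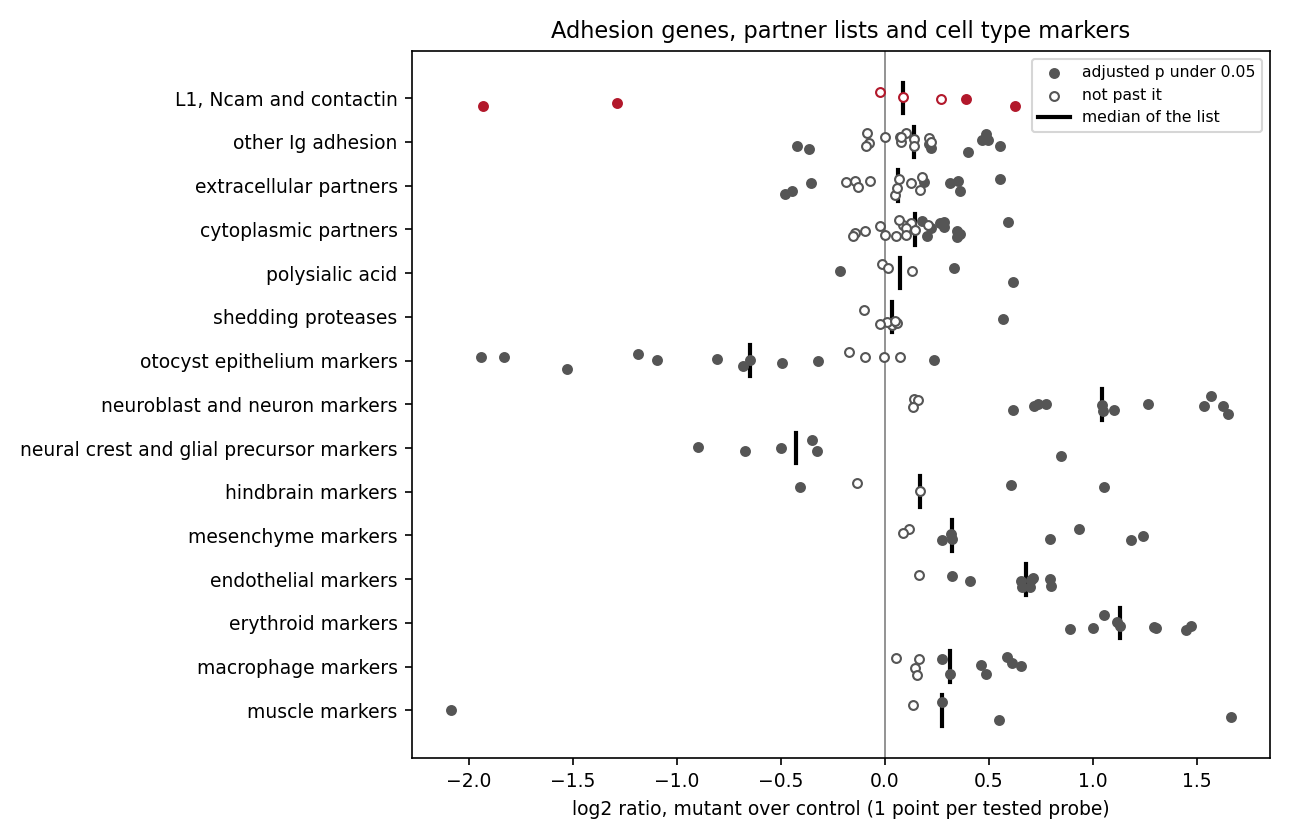
Log2 ratio of mutant over control (horizontal axis) for each tested probe of the adhesion genes (red, top row), their partner lists and the cell type markers (grey), filled where the limma adjusted p was under 0.05, with the median of each list as a bar. The 2 Chl1 points stand far to the left of every partner list, whose probes lie between -0.48 and 0.62.

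The genes whose 4 ratios were nearest to those of a member were found by Euclidean distance over the 4 arrays among 13682 named genes, which gives a likeness and no test. For the brighter Chl1 probe the search gave the homeobox genes Hmx2 and Dlx1 and the muscle protein gene Smpx. They are not ranked, because the Chl1 ratios ran from -3.40 to -1.91 with the background correction and other settings, and its mutant spots were not well above background on arrays 1 and 3. Smpx too was faint in the mutant, being well above background on 1 mutant array and on 4 control arrays. Nearest to the brighter Ncam1 probe were Egfl7 at 0.06, Col3a1 at 0.09 and Pdgfrb at 0.09, and 61 genes lay within 0.2 of it. With so many genes this close, no shared cell type is read from these names. Nearest to Cntn1 were Topbp1, Sh3bgr and Arl4d, at 0.08 to 0.12, again among 61 within 0.2. For Nrcam and Nfasc, 98 and 267 genes lay within that distance, so their nearest genes are not singled out.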

How the data were processed

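Per the file headers, the deposited intensities of spots and their surroundings come from Feature Extraction 10.7.3.1, Agilent's scanner software. The files also hold log10 ratios of red over green, and flags, made by that software, per the file headers. The authors' series table holds scores, which are signed folds of mutant over control; turned to log2, 90.9% to 93.3% lay within 0.001 of the software's ratios. From the intensities, normexp (offset 50), loess within arrays and Aquantile for levels were computed in limma 3.58.1 under R 4.3.3, without 21 to 32 non-uniform spots per array. Probes that passed the background flag on 3 or more of 4 arrays in either genotype were fitted with genotype and dye terms (lmFit, eBayes), adjusted by Benjamini-Hochberg. Of 23200 such probes, 23175 had values on all arrays. The steps were tested on simulated data. Coordinates are those of the files (mm9). The sex interaction and the separate-channel fit were run likewise. All member probes were described, and list genes were named by the smallest adjusted p, up to 4 per list, from which examples are given. The members and lists were chosen with earlier results of these data known. Figures used matplotlib 3.10.9.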

Additional observations from a re-analysis of the deposited data

Results flagged for a closer look

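Nfasc had 1 array far from the other 3. Its log2 ratio was 0.32 on array 1, against -0.02 to 0.04 on the others, a gap of 0.834 of the whole range, above Dixon's critical value for 4 samples. Of 21 groups of 4 values examined this way, 1 stood out, and chance gives about 1 in 20.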

How the results depend on the processing

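Over the alternatives, 4 of 119 values of single probes changed sign, 3 of Nrcam and 1 of Nfasc, neither of them called, and 4 values of the dimmer Ncam1 probe passed the threshold. The Chl1 log2 ratios ran from -3.40 to -1.91 with the brighter probe and from -3.67 to -1.16 with the dimmer one. Chl1 was called lower in each fitted alternative that kept it. These alternatives reuse the arrays on which the genes were selected, so the repeated call adds no independent support. When each of the 4 arrays had to pass the background flag for mutant and control alike, 0 member probes were lower because Chl1 was left out, and with 1 probe per gene there was 1. Nrcam ranged from -0.17 to 0.12 when an array was left out and was 0.16 in male pairs alone, where Nfasc was -0.01. The dimmer Ncam1 probe was at 0.15 without array 1 and at 0.40 without array 3, and it was called without array 3, with median centring, without the dye term and with a sex term. Over all probes the lower calls were 1338 to 2164 when 1 array was left out, 1338 being without array 3. The sex interaction gave 4 calls over all probes, 45 with an intensity trend and 685 with median centring, where 1 member probe, Nrcam, was called; the cause was not tested. Male over female level gave 12, 25 with median centring and 23 with no filter. Faint mutant spots limit the size of the Chl1 difference.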

Other observations

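Within 2 Mb of the brighter Chl1 probe (mm9), 10 probes were annotated and 4 were tested, the 2 Chl1 probes and 2 of other targets, whose log2 ratios were 0.00 and 0.13 and were not called. Around the brighter Ncam1 probe, 41 other probes were tested, of which 7 were higher and 7 lower, from -0.68 for Zbtb16 to 0.99 for the clone 1600029D21Rik. The nearest gene there with a tested probe, Ttc12, had -0.10 and -0.13 and was not called. Around Cntn1, 3 of 18 other probes were higher and 0 lower. These windows were chosen after the values were seen.

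The T-box core GGTGTGA, on either strand (TCACACC), was searched in promoters of 300 bases from RefSeq (GRCm38.p6), covering 250 bases before and 50 after each start. It was found in 0 of 14 promoters of 9 members and in 3.98% of all 32851 promoters. With a motif this rare, 14 promoters are too few for 0 to show a lack of sites. Ncam1 had no entry in that table.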
